A study of Mus musculus with 15 samples.

Results

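Toll-like receptors are the microbe sensors of macrophages and other innate immune cells. Tlr1, Tlr2, Tlr4 and Tlr6 encode receptors of the cell surface that bind bacterial lipoproteins and lipopolysaccharide, and Tlr3, Tlr7, Tlr9 and Tlr13 encode receptors of the endosome that bind nucleic acids. Myd88 encodes the adaptor that most of these receptors use to activate NF-kB, and Ticam1 encodes TRIF, the adaptor through which TLR3 and TLR4 induce type I interferon. These 10 genes, of 21938 protein-coding genes in GENCODE M21 (counted by identifier), were examined by name in region lists of histone marks from mouse bone marrow-derived macrophages (BMDMs). Acetylation of histone H3 at lysine 27 (H3K27ac) marks active promoters and enhancers, and trimethylation at lysine 36 (H3K36me3) is laid down over transcribed gene bodies. H3.3 is the variant of histone H3 that is placed in chromatin outside replication, mainly at active genes.

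The lists came from CUT&RUN, which sequences the DNA that a nuclease, held by an antibody at its target, cuts out of chromatin. Of 15 samples, 10 had a region list: 2 of H3.3-HA, and 2 per genotype (WT and cKO) for H3K27ac and likewise for H3K36me3. The 5 IgG samples entered only as controls of region calling. WT macrophages were H3f3a fl/fl H3f3b fl/fl without Cre, and cKO macrophages carried the same floxed alleles with LysM cre/cre, which places Cre under the Lyz2 gene of macrophages and granulocytes. The H3.3-HA macrophages came from mice with an HA tag knocked in at H3f3b and were collected on day 7. All mice had a C57BL/6 background, and the study used males and females of 8 to 10 weeks. Marrow cells were grown for 6 to 8 days in medium conditioned by L929 cells. No source used here says whether the replicates were separate animals, so the p-values measure the spread between libraries, which may be technical.

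Whole lists differed in ways that bear on every gene below. Libraries held 5365319 to 29988098 tags and 35018 to 61764 regions. The H3K27ac lists labelled cKO had 35018 and 41444 regions against 61764 and 54630 in WT, and H3K36me3 regions covered 90.7 Mb in cKO replicate 1 against 163 to 170 Mb in the other 3 libraries. The floxed genes carried regions in every H3K27ac and H3K36me3 library. Over the body of H3f3b, H3K27ac covered 1446 and 1461 bp in WT and 3351 and 4453 bp in the libraries labelled cKO, so the lists did not show the deletion, and WT and cKO refer to the labels throughout. The study itself reported depletion of H3.3 RNA and protein in cKO macrophages. It also reported that H3f3b deletion appeared to vary between cKO samples, from partial to complete. Among 8 macrophage markers, 7 carried each mark in all 4 of its libraries. H3K36me3 was called in no library at any of 3 fibroblast, 4 T cell, 6 neutrophil and 3 erythroid markers, and in none at 3 of 4 B cell and 3 of 4 dendritic cell markers. H3K27ac was called in no library at 3 of 3 fibroblast, 2 of 4 T cell, 3 of 6 neutrophil, 2 of 3 erythroid, 2 of 4 B cell and 2 of 4 dendritic cell markers. The mean covered share of the 6 neutrophil windows was 1.20 to 2.66% in WT and 1.73 to 5.11% in cKO, and that of the 4 T cell windows 0 to 0.133% in WT and 2.14 to 3.31% in cKO, with no overlap, where Cd3d alone carried H3K27ac in cKO (8.56% and 13.2%). For the 8 macrophage windows it was 27.7 to 33.9% in WT and 20.2 to 24.1% in cKO. Lyz2, the gene that carries Cre in cKO, had 94.2% and 88.4% in WT and 28.1% and 24.4% in cKO, and the mean of the other 7 overlapped, at 25.3% and 19.1% in WT and 19.1% and 24.1% in cKO. The part of these differences in the results was not tested.

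The value used for each gene was the percent of its window covered by called regions, the window being the gene body plus 5 kb upstream. It is a length per length and not a signal, since the lists hold no height for a region. With 2 libraries a group, the exact permutation test (two-sided) that compared WT with cKO cannot give a p below 0.333. A gene was counted as higher or lower only where both cKO libraries lay on one side of both WT libraries. A region was counted as gained when both cKO and neither WT library held it, and as lost in the opposite case. In shares and medians, all genes means genes with a region of the mark in at least 1 library, or of both marks for joint counts. The share for H3.3-HA alone is over all 21938 protein-coding genes.

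Promoter sequence was available in the RefSeq table of GRCm38.p6 for 8 of the 10 genes, in 10 windows of 300 bases that run from 250 before to 50 after a start site. Shown here are the promoters of 4 genes on which the comparison below turns: Tlr3, whose start-site H3K27ac region was called in WT alone, Tlr9, the gene with higher H3K27ac coverage in cKO, Tlr2, whose upstream H3K27ac was shorter in cKO, and Tlr13, which had higher H3K36me3 coverage in cKO. Each runs 5′ to 3′ on the strand of the gene. Capitals mark matches, on either strand, to the cores of the PU.1 (GAGGAA), AP-1 (TGANTCA) and NF-kB motifs, the last being GGG and TTCC with any 3 bases between.
Tlr3, chr8:45410331-45410630, minus strand: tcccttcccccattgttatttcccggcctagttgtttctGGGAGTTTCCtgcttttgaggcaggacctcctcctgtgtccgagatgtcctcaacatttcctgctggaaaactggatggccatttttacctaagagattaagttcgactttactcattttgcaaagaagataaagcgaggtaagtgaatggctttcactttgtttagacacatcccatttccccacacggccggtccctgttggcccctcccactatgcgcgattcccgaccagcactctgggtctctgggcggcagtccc
Tlr9, chr9:106222348-106222647, plus strand: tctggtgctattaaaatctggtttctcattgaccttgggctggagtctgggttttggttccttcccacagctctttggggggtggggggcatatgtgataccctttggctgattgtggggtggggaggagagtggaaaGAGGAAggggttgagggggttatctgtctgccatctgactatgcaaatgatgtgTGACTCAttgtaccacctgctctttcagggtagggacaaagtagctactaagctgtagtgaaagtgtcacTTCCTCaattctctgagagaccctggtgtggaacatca
Tlr2, chr3:83841559-83841858, minus strand: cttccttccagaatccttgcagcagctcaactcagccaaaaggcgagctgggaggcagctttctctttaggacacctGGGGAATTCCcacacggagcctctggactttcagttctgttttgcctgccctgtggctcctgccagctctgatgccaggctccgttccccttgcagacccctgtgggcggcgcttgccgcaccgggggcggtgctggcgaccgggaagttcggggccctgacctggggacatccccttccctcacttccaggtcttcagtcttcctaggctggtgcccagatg
Tlr13, chrX:106143025-106143324, plus strand: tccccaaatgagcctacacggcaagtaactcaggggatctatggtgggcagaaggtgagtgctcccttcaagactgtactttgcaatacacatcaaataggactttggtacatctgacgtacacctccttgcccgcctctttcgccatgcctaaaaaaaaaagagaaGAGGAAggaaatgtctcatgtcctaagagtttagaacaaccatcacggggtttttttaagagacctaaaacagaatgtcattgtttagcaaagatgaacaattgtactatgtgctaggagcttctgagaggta
The capitals of Tlr3 (-211 to -202 from the RefSeq start) and Tlr2 (-173 to -164) are NF-kB cores. Those of Tlr9 are PU.1 cores at -112 to -107 and, on the opposite strand, at 12 to 17, and an AP-1 motif at -58 to -52. The capitals of Tlr13 are a PU.1 core at -83 to -78. These positions count from the RefSeq start, and distances below count from the start of the GENCODE principal transcript. The starts are the same at Tlr9 and differ at Tlr3, Tlr2 and Tlr13. At Tlr3 the GENCODE start is base 45410619, so most of the printed window, with its NF-kB core, lies inside that transcript. At Tlr2 it is base 83841767, so most of the window lies inside the transcript and the core before it. PU.1 is the lineage factor of macrophages, and NF-kB and AP-1 are factors that receptor signaling activates. Over the 8 genes, a PU.1 core lay in the windows of 4 (Tlr1, Tlr9, Tlr13 and Ticam1), an NF-kB core in those of 3 (Tlr2, Tlr3 and Tlr6), an AP-1 motif in that of Tlr9, and an interferon response core, a pair of GAAA repeats with any 2 bases between, in those of Tlr6 and Myd88. A TATA box (TATAAA) lay in windows of Tlr6 and Myd88. Of all 32851 windows in the table, 28.3% held the PU.1 core, 5.56% the NF-kB core, 7.81% the AP-1 motif, 3.44% the interferon response core and 13.6% the TATA box. The number of CpG dinucleotides ranged from 0 in the Tlr9 promoter to 13 in that of Myd88, with a median of 7 over the table. These are matches of letters and not binding sites.

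H3K27ac covered less of most of the 10 genes in the libraries labelled cKO, and H3K36me3 covered more of 4 of them. H3K27ac coverage was lower at 7 genes (Tlr1, Tlr2, Tlr4, Tlr6, Tlr3, Tlr7 and Ticam1), against 38.2% of the 12767 genes with an H3K27ac region, and higher at 1 gene, Tlr9, against 17.4%. H3K36me3 coverage was higher at 4 genes (Tlr2, Tlr4, Tlr7 and Tlr13), against 7.85% of the 11975 genes with an H3K36me3 region, and lower at 2 genes, Tlr6 and Ticam1, against 37.7%. The mean over 7 macrophage markers (without Lyz2) was also higher for H3K36me3, at 52.8% and 56.6% in WT and 57.8% and 71.8% in cKO. Higher H3K36me3 coverage was thus not particular to the 10 genes. The median difference of cKO minus WT over the 10 genes was -8.23 percentage points for H3K27ac, with -1.02 over all genes, and 4.47 for H3K36me3, with -4.99 over all genes. The median for H3K36me3 rested on cKO replicate 2, since without that library it was -1.12. The H3K27ac lists of the cKO libraries were also shorter, and the part of that in the lower coverage was not tested. When the 4 lists were cut to their 35018 widest regions, the same 7 genes were lower and Tlr9 was higher. The shares of all genes were then 31.2% and 25.1%. That cut leaves cKO replicate 1 whole and drops only the narrowest regions of the others, so it cannot decide what part list length had.

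**Figure D1:**
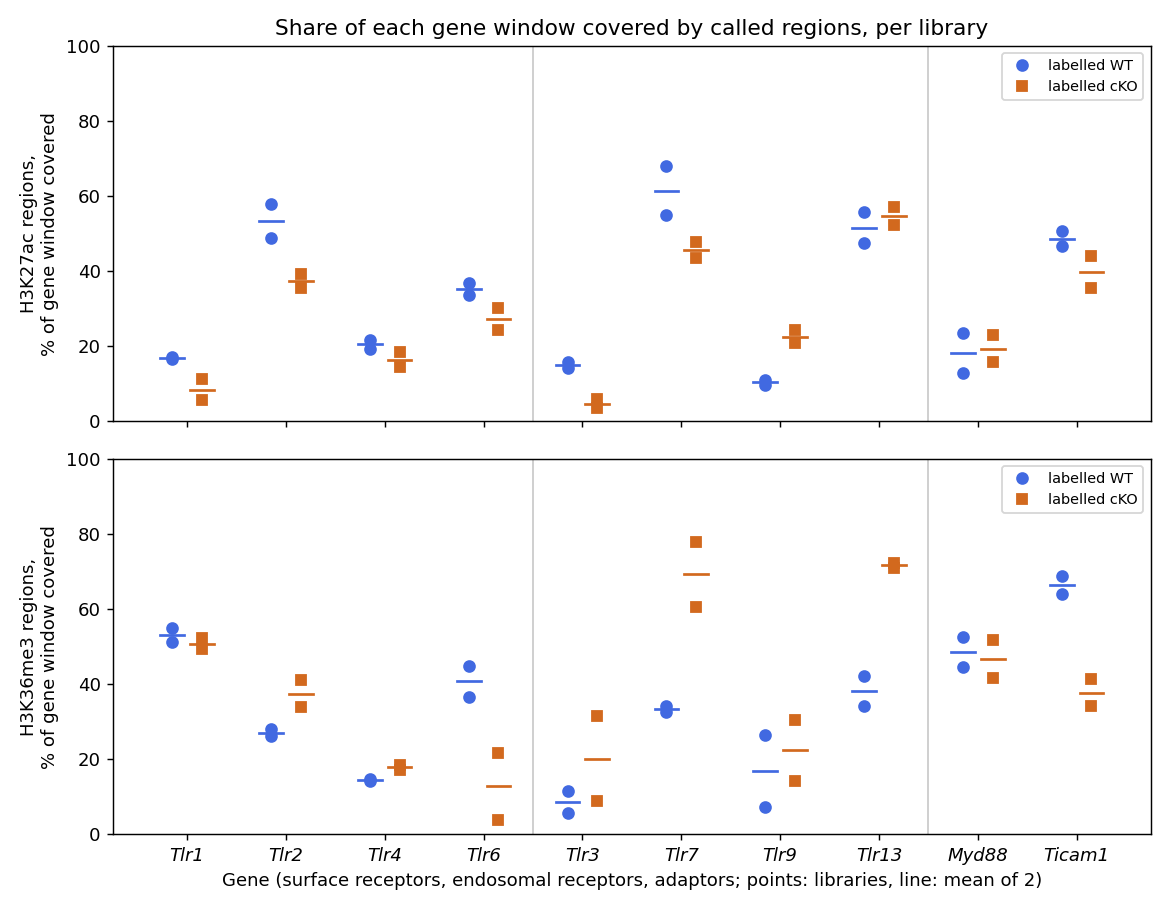
Percent of each gene window (body plus 5 kb upstream) covered by H3K27ac (top) and H3K36me3 (bottom) regions in each library, with WT as circles, cKO as squares and short lines for the mean of 2 libraries; grey lines part surface receptors, endosomal receptors and adaptors. H3K27ac squares lie below the circles at 7 genes and above them at Tlr9, and H3K36me3 squares lie above the circles at Tlr2, Tlr4, Tlr7 and Tlr13.

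No gene had a gained region of either mark when 1 shared base was enough for a merged region to count as held. Of the 12767 genes with an H3K27ac region 17.3% had a gained one, and of the 11975 with an H3K36me3 region 8.47%. A lost H3K27ac region lay in 2 windows, Tlr3 and Tlr4, where 37.3% of all genes had one, and a lost H3K36me3 region in 0 windows, where 23.6% had one. The counts depended on that rule. When a library had to cover 0.5 of a merged region, a gained H3K27ac region lay at Tlr9, a gained H3K36me3 region at Tlr3 and Tlr7, and a lost H3K36me3 region at Tlr6 and Ticam1. Shares of all genes under that rule are not given, so these counts cannot be set against them. These counts have no test of their own, and leaving out single libraries gave up to 3 genes with a gained region for each mark. Shares of all genes are not given without single libraries either.

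**Figure D2:**
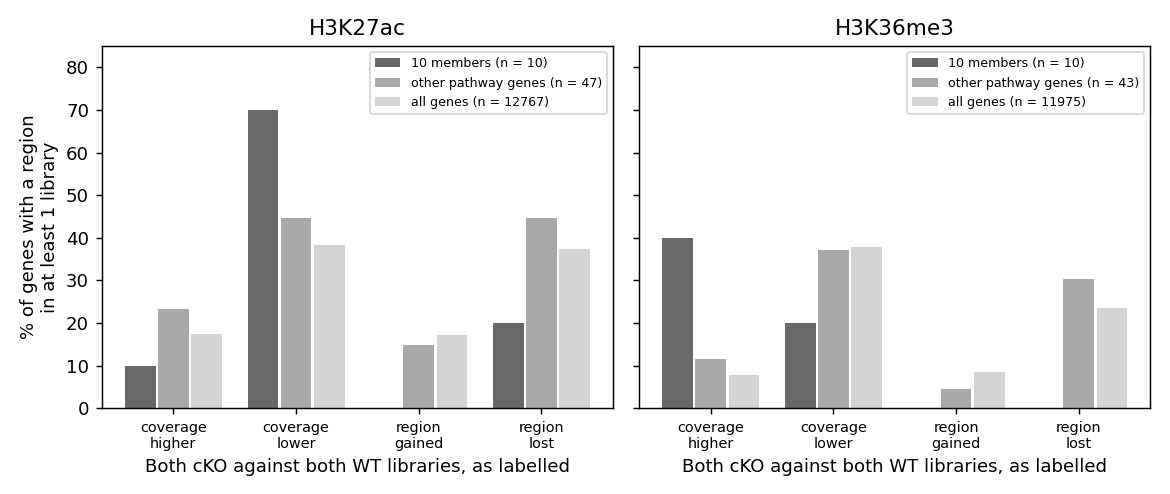
Percent of genes with coverage higher or lower, or with a gained or lost region, in both cKO against both WT libraries, for the 10 genes, the other genes of the pathway list and all genes with a region of the mark in at least 1 library. The 10 genes stand at 7 of 10 for lower H3K27ac and 4 of 10 for higher H3K36me3.

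Of the surface receptors, Tlr2 (chr3:83836272-83841767, minus strand) pairs with TLR1 or TLR6 to bind lipoproteins. H3K27ac covered 58.0% and 48.9% of its window in WT and 39.1% and 35.4% in cKO. Both cKO libraries were below both WT libraries, a difference of -16.2 percentage points (exact permutation p = 0.333; 53.4 ± 6.47 against 37.3 ± 2.65, SD, n = 2). The difference lay upstream of the gene, where H3K27ac covered 3537 and 2831 bp of the 5 kb in WT and 1141 and 358 bp in cKO. Over the body the direction was the opposite, with 2551 and 2297 bp in WT and 2967 and 3356 bp in cKO, so that coverage of the body alone was higher by 13.4 percentage points. H3.3-HA regions filled 4021 and 3250 bp of that upstream stretch in the 2 replicates, the side on which the WT H3K27ac regions were longer. The printed promoter was covered whole in WT replicate 1, over 3 bases in WT replicate 2, and whole in both cKO libraries. H3K36me3 covered 28.1% and 26.1% of the Tlr2 window in WT and 33.8% and 41.1% in cKO, a difference of 10.4 percentage points with no overlap of the groups (exact permutation p = 0.333). With 20 kb added on both sides of the gene it was 0.656 and the groups overlapped (exact permutation p = 0.667), so Tlr2 was then no longer higher. The coding sequence of Tlr2 lies in 1 exon at the end of the gene, and the first H3K36me3 base lay 2549 and 2757 bp after the start site in WT and 1951 and 1182 bp after it in cKO.

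Tlr4 (chr4:66827584-66930284, plus strand), the receptor for lipopolysaccharide, has a long isoform that stretches the gene to 102701 bp, while its principal transcript spans 15217 bp. H3K27ac covered 21.7% and 19.3% of the gene window in WT and 14.4% and 18.3% in cKO, and H3K36me3 14.2% and 14.8% in WT and 17.2% and 18.5% in cKO. The groups overlapped for neither mark (exact permutation p = 0.333 for each). Over the principal transcript with 5 kb upstream, the values were 61.9% and 60.2% in WT and 48.1% and 54.2% in cKO for H3K27ac, and 49.7% and 52.2% in WT and 68.7% and 68.0% in cKO for H3K36me3. There H3K36me3 formed a single run of 17992 and 17733 bp in the cKO libraries that began 1335 and 1461 bp after the start site, whereas the WT libraries began at 3186 and 4057 bp. The H3K27ac region over the start site was wider in cKO (6173 and 6313 bp) than in WT (5141 and 4952 bp). Farther in, a region of 1783 and 1893 bp that began 6407 and 6249 bp after the start site in WT was not called in cKO replicate 1 and measured 501 bp in replicate 2. The lost region (chr4:66894390-66895548, 1159 bp) lay 66806 bp from the start site, beyond the principal transcript and inside the long isoform only. It was called over 501 bp in WT replicate 1 and held no H3.3-HA region. With lists of equal number it was no longer called lost, which left 1 gene, Tlr3, with a lost H3K27ac region.

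Tlr1 (chr5:64924679-64933563) and Tlr6 (chr5:64952031-64960097) lie next to each other on the minus strand and encode the partners of TLR2. H3K27ac covered 17.2% and 16.6% of the Tlr1 window in WT and 5.59% and 11.1% in cKO. At Tlr6 it covered 36.9% and 33.5% in WT and 24.3% and 30.3% in cKO. Both genes were lower in both cKO libraries, by -8.54 and -7.91 percentage points (exact permutation p = 0.333 for each). The start-site region of Tlr1 measured 2393 and 2300 bp in WT and 776 and 903 bp in cKO, and that of Tlr6 4824 and 4379 bp in WT and 3178 and 3958 bp in cKO. H3K36me3 was lower at Tlr6 but overlapped at Tlr1. It covered 51.2% and 55.0% of the Tlr1 window in WT and 49.4% and 52.2% in cKO, which overlapped (exact permutation p = 0.667). At Tlr6 it covered 36.7% and 44.7% in WT and 3.83% and 21.7% in cKO, a difference of -28.0 percentage points (exact permutation p = 0.333), and the first base lay 2431 and 2170 bp after the start site in WT and 5378 and 4172 bp after it in cKO. The value of 3.83% came from cKO replicate 1, the library with the least covered length, and the value of 21.7% from replicate 2. The call as lower requires both to lie below both WT libraries. The difference between Tlr1 and Tlr6 was not tested. The genes share sequence, with 7.81% of the 25-base words of Tlr1 found in Tlr6 and 8.47% of those of Tlr6 found in Tlr1, the length of 1 sequenced read end, so short stretches of either gene could have received reads of the other.

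Among the endosomal receptors, Tlr7 and Tlr13 stood out by H3K36me3. Tlr7 (chrX:167304929-167330558, minus strand) binds single-stranded RNA. H3K36me3 covered 34.1% and 32.5% of its window in WT and 60.6% and 78.0% in cKO. Both cKO libraries were far above both WT libraries, a difference of 35.96 percentage points (69.3 ± 12.3 against 33.3 ± 1.11, SD, n = 2; exact permutation p = 0.333). In WT the mark was patchy over the long intron, with a run of 4837 and 8379 bp at the end of the gene. In cKO it began 1256 and 1232 bp after the start site, against 4572 and 4969 bp in WT, and ran without a break for 9708 and 9848 bp. H3K27ac had the opposite direction, with 68.1% and 54.9% of the window in WT and 43.6% and 47.6% in cKO, a difference of -15.9 percentage points (exact permutation p = 0.333). The H3K27ac region over the start site measured 20844 and 10222 bp in WT and 8831 and 8336 bp in cKO.

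Tlr13 (chrX:106143204-106160493, plus strand), a mouse receptor for bacterial ribosomal RNA, had higher H3K36me3 coverage as well. H3K36me3 covered 34.1% and 42.1% of its window in WT and 71.0% and 72.4% in cKO, a difference of 33.6 percentage points (exact permutation p = 0.333). Over the body alone this was 44.0% and 54.3% in WT and 91.6% and 93.3% in cKO, so that little of the gene was left uncovered. The mark began 2804 and 3477 bp after the start site in WT and 443 and 1131 bp in cKO. The last run measured 6989 and 8747 bp in WT and 15928 and 16701 bp in cKO, and it reached past the end of the gene in all 4 libraries. H3K27ac overlapped between the groups, at 55.7% and 47.6% in WT and 52.4% and 57.0% in cKO (exact permutation p = 0.667). Its position along the gene differed, with 1709 and 1351 bp upstream in WT and 2716 and 4214 bp in cKO, and over the body 61.9% and 53.5% in WT and 51.8% and 49.2% in cKO. The printed promoter was covered in all 4 H3K27ac libraries.

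Both genes lie on chromosome X, where 9.24% of the 314 genes with an H3K36me3 region were higher in both cKO libraries. The H3K36me3 list of cKO replicate 1 covered the least length of the 4. The call of both genes as higher already requires that library to lie above both WT libraries. The part of list length in these values was not tested. The labels give no sex. Over 4 Y-linked genes, H3K36me3 covered 20.4 to 80.4% of each window in all 4 libraries, while H3K27ac covered none in any of its 4 libraries, and over Xist, which is transcribed from the inactive X, H3K27ac covered 8.07 to 10.5% and H3K36me3 none. The libraries of the marks thus differed from each other in these genes, and WT and cKO libraries of the same mark did not differ in which they covered. For an X-linked gene, a comparison of H3K27ac with H3K36me3 therefore cannot be told apart from this difference between libraries.

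**Figure D3:**
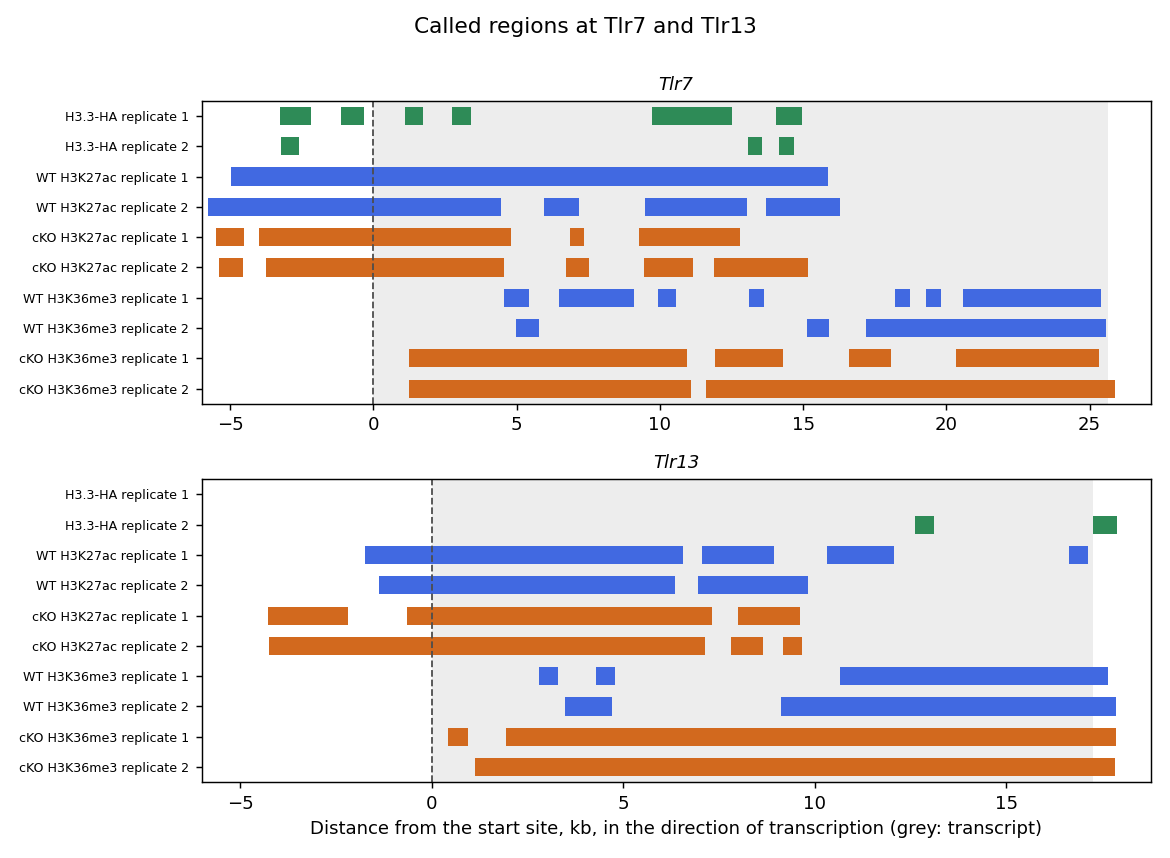
Called regions at Tlr7 (top) and Tlr13 (bottom) in each of the 10 libraries, plotted by distance in kb from the start site (dashed line), with the transcript shaded, H3.3-HA in green, WT in blue and cKO in orange. The cKO H3K36me3 bars start closer to the start site than the WT bars at both genes, and Tlr13 has no H3.3-HA bar in replicate 1.

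Tlr3 (chr8:45395665-45411080, minus strand) binds double-stranded RNA. H3K27ac covered 15.9% and 14.2% of its window in WT and 3.55% and 5.89% in cKO, a difference of -10.3 percentage points (exact permutation p = 0.333). The region over the start site, 1871 and 1859 bp wide in WT, was called in neither cKO library. As a merged region it spanned chr8:45409249-45411347, from -728 to 1370 bp around the start site, and took in upstream sequence, untranslated exon sequence and part of an intron. It was also called lost with lists of equal number. The RefSeq window printed above, most of which lies inside the GENCODE transcript, lay whole inside it in both WT libraries. In both cKO libraries that window lay outside any H3K27ac region. What was left in cKO was an upstream region of 725 bp (-4830 to -4106 from the start site) in replicate 1 and 1203 bp (-5066 to -3864) in replicate 2, where both WT libraries also had one. H3.3-HA replicates each had a region that overlapped the lost stretch, of 1167 and 501 bp, but at positions that did not overlap each other. An antisense transcript, Gm45542, covers 698 bp of the window at the start site, and the lists do not show which of the pair a region belongs to. H3K36me3 at Tlr3 was sparse and variable, with 5.55% and 11.4% in WT and 8.78% and 31.5% in cKO, and the groups overlapped (exact permutation p = 0.667).

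Tlr9 (chr9:106222598-106226883, plus strand), the receptor for unmethylated CpG DNA, was the only one of the 10 genes with higher H3K27ac coverage in this window. H3K27ac covered 9.72% and 11.01% of its window in WT and 20.8% and 24.3% in cKO, a difference of 12.2 percentage points (22.5 ± 2.44 against 10.4 ± 0.906, SD, n = 2; exact permutation p = 0.333). The region at the start site measured 903 and 1022 bp in WT and 1931 and 2252 bp in cKO. Most of the added length lay upstream, since it reached 16 and 32 bp before the start site in WT and 832 and 1147 bp in cKO, while its inner edge lay at 886 and 989 bp in WT and at 1098 and 1104 bp in cKO. The printed promoter was covered over 66 and 82 of its 300 bases in WT and whole in cKO, so the PU.1 core at -112 and the AP-1 motif at -58 lay inside H3K27ac in the cKO libraries alone. Extending the window by 20 kb on both sides left 0 of the 10 genes with higher coverage, so Tlr9 was then no longer higher. H3K36me3 covered 7.23% and 26.3% in WT and 14.2% and 30.5% in cKO, which overlapped (exact permutation p = 0.667).

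**Figure D4:**
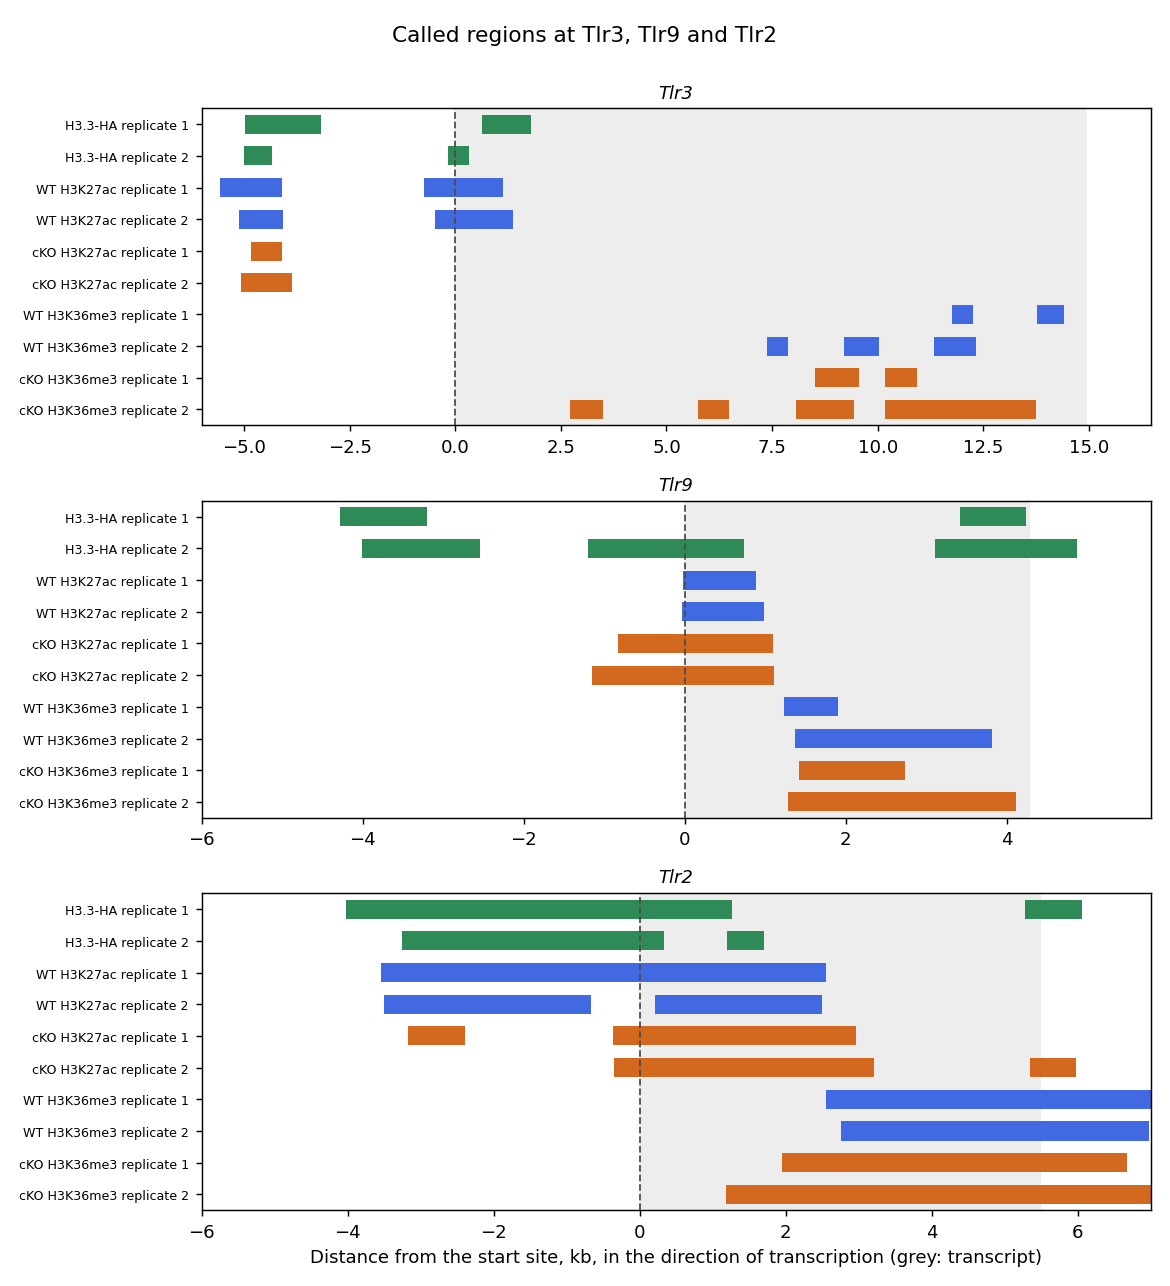
Called regions at Tlr3, Tlr9 and Tlr2 in each of the 10 libraries, plotted by distance in kb from the start site (dashed line), with the transcript shaded and colors for H3.3-HA (green), WT (blue) and cKO (orange). H3K27ac over the start site of Tlr3 is present in WT and absent in cKO, and that of Tlr9 reaches farther upstream in cKO. H3K27ac upstream of Tlr2 is shorter in cKO, and no region covers the Tlr2 start site in WT replicate 2.

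Of the adaptors, Ticam1 (chr17:56269319-56276786, minus strand) was lower for both marks. H3K36me3 covered 68.8% and 63.9% of its window in WT and 34.1% and 41.3% in cKO, a difference of -28.7 percentage points (exact permutation p = 0.333). Part of that window belongs to Plin3, a lipid droplet gene on the same strand, which covers 4311 bp of it. Over the body of Ticam1 alone, the covered length was 4642 and 4809 bp in WT and 1056 and 1685 bp in cKO, and the first base lay 1975 and 2043 bp after the start site in WT and 4698 and 4568 bp after it in cKO. H3K27ac covered 50.6% and 46.6% of the window in WT and 35.6% and 44.0% in cKO, a difference of -8.79 percentage points (exact permutation p = 0.333), which was 3.25, in the opposite direction, when 20 kb were added on both sides. With regions of at least 1 kb alone the H3K27ac groups overlapped, and with 20 kb on both sides so did those of H3K36me3 (exact permutation p = 0.667 for each). Upstream of Ticam1 it covered 1466 and 1504 bp in WT and 1939 and 2433 bp in cKO, and over the body 4838 and 4310 bp in WT and 2501 and 3053 bp in cKO.

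Myd88 (chr9:119335934-119341411, minus strand) showed no separation of the groups for either mark. H3K27ac covered 23.6% and 12.9% of its window in WT and 15.7% and 23.1% in cKO (exact permutation p = 1), and H3K36me3 52.5% and 44.5% in WT and 41.5% and 51.8% in cKO (exact permutation p = 0.667). The H3K27ac region at the start site was nevertheless slightly wider in cKO, at 1642 and 1918 bp against 1370 and 1349 bp. Myd88 shares its window with Acaa1a, a gene of peroxisomal fatty acid oxidation on the opposite strand, over 6736 bp, and the annotated body of Slc22a14, a transporter gene, spans all of it, so regions there cannot be assigned to Myd88 alone.

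The edges of the regions were compared over all 10 genes. The H3K27ac region within 1 kb of the start site was wider in both cKO libraries at 3 genes (Tlr4, Tlr9 and Myd88), against 32.8% of 9872 genes, and narrower at 5 genes (Tlr1, Tlr2, Tlr6, Tlr3 and Tlr7), against 18.9%. Where more than 1 region reached within 1 kb, their full lengths were summed. At Tlr2 in WT replicate 2 these were regions of 2297 and 2831 bp, neither of which covered the start site. The first H3K36me3 base after the start site was nearer at 4 genes (Tlr2, Tlr4, Tlr7 and Tlr13), against 16.7% of 8431 genes, and farther at 2 genes (Tlr6 and Ticam1), against 29.1%. The genes with the nearer and the farther first base were those with the higher and the lower H3K36me3 coverage, and both values come from the same regions. At Tlr2, Tlr4 and Tlr7, 3 of 10 genes, lower H3K27ac and higher H3K36me3 coverage occurred together, against 2.13% of the 10774 genes with a region of both marks. These edges and the joint count were examined after the coverage had been seen.

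**Figure D5:**
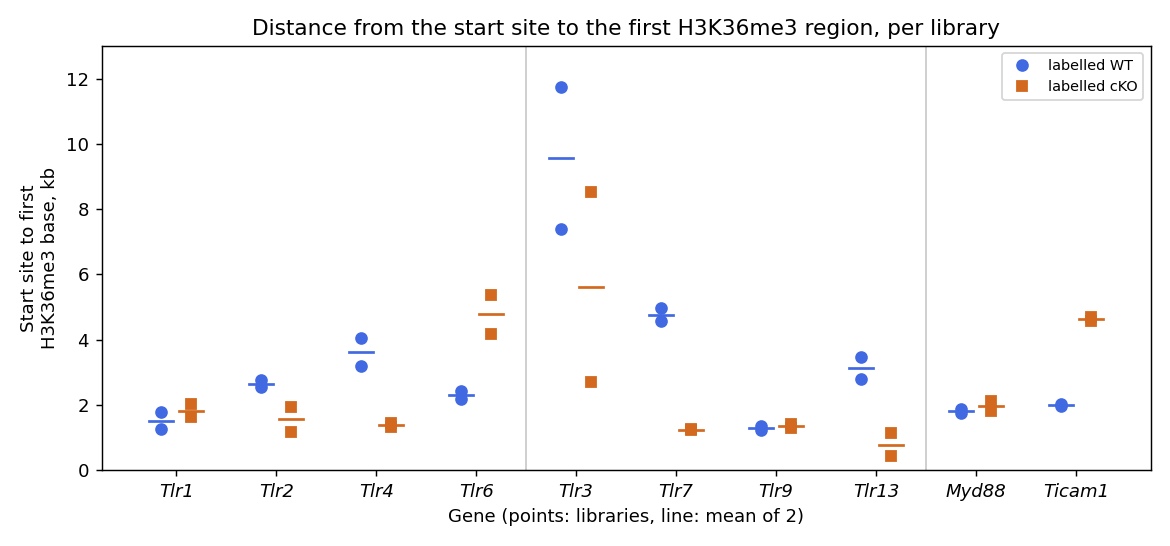
Distance in kb from the start site to the first H3K36me3 base inside the transcript, per library (WT circles, cKO squares, short lines for the mean of 2), for the 10 genes. Squares lie below the circles at Tlr2, Tlr4, Tlr7 and Tlr13 and above them at Tlr6 and Ticam1.

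H3.3-HA showed where the variant lay at these genes in macrophages with the tagged H3f3b. A region lay in the window in both replicates at 9 of the 10 genes, against 44.2% of all 21938 protein-coding genes. That share takes in genes without a region of either histone mark, while all 10 genes had regions of both marks. The exception was Tlr13, with no region in replicate 1 and 2.31% of the window in replicate 2. At Tlr1 the replicates covered 0.202% and 3.61% and lay at opposite ends of the gene, so that 8 genes had bases covered in both replicates. With the gene body alone the count of 9 genes fell to 7, and with regions of at least 1 kb to 6. Tlr2 had the largest covered share in replicate 1, at 52.4%, with 38.9% in replicate 2, and Tlr9 the largest in replicate 2, at 49.3%, with 20.4% in replicate 1. Myd88 held 21.7% and 33.1%, Ticam1 19.2% and 27.2%, Tlr4 16.9% and 8.70%, Tlr6 15.3% and 9.02%, Tlr3 14.6% and 5.64% and Tlr7 22.5% and 5.36%. At Tlr7 and Tlr9 the replicates lay 17.2 and 28.9 percentage points apart, so no order of these genes was drawn.

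Shared H3.3-HA regions with bases of both replicates inside the windows numbered 16, at 8 genes. Inside the windows, 13 of them overlapped H3K27ac in both WT libraries and 4 overlapped H3K36me3 in both. The 2 that overlapped neither mark in both libraries were at Tlr9, one upstream at -4284 to -2543 bp from the start site and one over the end of the gene at 3109 to 4868 bp, which overlapped H3K36me3 in WT replicate 2 but not in replicate 1. Of the H3K27ac regions held by both WT libraries, 14 overlapped H3.3-HA regions of both replicates inside the window and 7 did not, and 1 of each was lost in cKO, the start-site region of Tlr3 among the former and the distal region of Tlr4 among the latter. The 4 genes with the largest differences in H3K36me3 coverage thus ranged from Tlr13, with no base in both H3.3-HA replicates, to Tlr6, Tlr7 and Ticam1, with 563, 1141 and 2367 such bases.

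A list of 49 other genes of the Toll-like receptor pathway served as a comparison, and all 49 were found in the annotation. H3K27ac was higher at 11 and lower at 21 of the 47 with a region, against 17.4% and 38.2% of all genes. The median difference was -2.20 percentage points. H3K36me3 was higher at 5 and lower at 16 of the 43 with a region, against 7.85% and 37.7%, with a median of -5.35. A gained H3K27ac region lay at 7 genes and a lost one at 21, against 17.3% and 37.3% of all genes. A gained H3K36me3 region lay at 2 and a lost one at 13, against 8.47% and 23.6%. These pathway counts lay near the shares of all genes. Lower H3K27ac and higher H3K36me3 coverage occurred together at 4 of the 43 pathway genes with a region of both marks (Tlr8, Cd180, Cd36 and Pik3ap1), against 2.13% of all genes. Tlr8, an endosomal receptor gene on chromosome X near Tlr7, had H3K36me3 over 34.1% and 44.8% of its window in WT and 53.4% and 53.1% in cKO, and H3K27ac over 16.5% and 16.3% in WT and 12.98% and 15.4% in cKO. Cd180, a receptor homolog of B cells and macrophages, had H3K36me3 over 42.4% and 47.6% in WT and 47.9% and 71.3% in cKO, and H3K27ac over 48.1% and 45.5% in WT and 26.4% and 27.4% in cKO. Tlr8 and Cd180 were chosen after their values were seen, and the difference between the lists was not tested.

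The 10 pathway genes with the most gained plus lost length follow. That rank favors long genes and genes with lost regions, so lower coverage among them is partly set by the choice. All 10 were lower for H3K27ac, and none of the 11 pathway genes with higher H3K27ac coverage is among them. Nfkb1, a subunit of NF-kB, held 7 lost H3K27ac regions, and H3K27ac covered 21.8 ± 2.25% of its window in WT against 12.9 ± 2.36% in cKO (SD, n = 2). Map3k7, the kinase TAK1, had 23.6 ± 10.1% in WT and 7.80 ± 5.08% in cKO for H3K27ac. Its partner Tab2 had 46.9 ± 7.73% and 18.7 ± 3.06%, the largest difference among the named pathway genes for H3K27ac. Irak3, an inhibitor of the receptors, was lower for H3K27ac (16.0 ± 1.38% against 6.47 ± 0.488%) and for H3K36me3 (40.4 ± 0.274% against 20.7 ± 10.6%). Traf3, a ubiquitin ligase of the interferon branch, was lower for both marks, with H3K36me3 over 42.8 ± 1.18% of its window in WT and 23.3 ± 17.5% in cKO. Rel, another NF-kB subunit, was also lower for both, at 33.6 ± 2.84% and 26.9 ± 3.77% for H3K27ac. Peli2, a ubiquitin ligase, had H3K36me3 over 7.77 ± 0.555% of its window in WT and 0.762 ± 0.107% in cKO, and it was lower for H3K27ac too. Ly86, the partner of the receptor homolog CD180, was lower for both marks, at 17.9 ± 0.659% and 11.6 ± 0.187% for H3K27ac. Pik3ap1 (BCAP), an adaptor to phosphoinositide 3-kinase, and Cd36, a scavenger receptor that delivers lipid ligands to the TLR2 and TLR6 pair, combined lower H3K27ac with higher H3K36me3, as Tlr2, Tlr4 and Tlr7 did. H3K36me3 covered 71.9 ± 2.09% of the Pik3ap1 window in WT and 84.1 ± 6.40% in cKO, and 33.8 ± 0.623% and 47.5 ± 5.98% of the Cd36 window. For the named pathway genes with lower H3K36me3, cKO replicate 1 was the lower of the cKO pair, as at Nfkb1 with 28.8% against 63.6% in replicate 2 and 68.5% and 70.2% in WT.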

How the data were processed

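Per the file headers, the authors called regions with HOMER in each library separately, with a peak size of 500 bp, at least 4-fold over IgG and a Poisson p-value of 1.00e-04 over IgG and over the surrounding 10000 bp. WT and cKO libraries each had their own IgG control and the H3.3-HA libraries another, so genotype cannot be told apart from the control used. Paired-end reads of 25 bp had been aligned to mm10, per the study's methods, with Bowtie2 in local mode. The deposited lists give a start and an end position for each region, and a score that is constant, so no height, fold or depth per region was known. Region lists were read with Python 3.11.15 and numpy 2.4.6, and genes came from GENCODE M21. The 10 genes and the pathway and marker lists were chosen with earlier results of these data known. All 10 genes were named, and of the pathway list the 10 with the most gained plus lost length. A minimum overlap of 1 bp counted as shared. Overlaps with H3.3-HA were counted inside the window, and macrophage markers averaged without Lyz2, as choices made after seeing the data. Region merging and coverage were tested on simulated data. The read-count test of the study could not be run on positions. Alternatives were other windows, a minimum width of 1 kb, lists of equal number, a stricter overlap, leaving out each library, and pairing by replicate number.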

Additional observations from a re-analysis of the deposited data

How the results depend on the processing

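Coverage of the 10 genes was recomputed with the gene body alone, with 20 kb added on both sides, with regions of at least 1 kb, with lists of equal number, with a library required to cover 0.5 of a merged region (region counts only) and without each library. Of 160 such differences, 13 changed sign, at 6 pairs of gene and mark. The causes were not tested. With the body alone, 3 genes had higher and 7 lower H3K27ac coverage, against 16% and 41.1% of all genes. Tlr2 (13.4 percentage points) and Tlr13 (-7.22) then changed sign for H3K27ac. With 20 kb on both sides, the median H3K27ac difference was -3.79 and that of H3K36me3 -0.815, 0 genes were higher for H3K27ac and 1 lower for H3K36me3, gained and lost H3K27ac regions lay at 3 and 5 genes, gained and lost H3K36me3 regions at 1 each, and Ticam1 H3K27ac (3.25) and Tlr9 H3K36me3 (-5.97) changed sign. The groups then overlapped for Tlr9 and Ticam1 H3K27ac and for Tlr2 (0.656) and Ticam1 (-10.2) H3K36me3, which left 6 genes lower for H3K27ac and 3 higher for H3K36me3. Regions of at least 1 kb ended the lower H3K27ac of Ticam1, with 6 genes lower, against 34.8% of all genes. They added Tlr3 to the genes with higher H3K36me3, with 5 genes higher, against 7.64%. They also gave 1 gene with a gained H3K36me3 region, against 4.03%, and -1.24 for Myd88 H3K27ac. Lists of equal number gave 1 gene with a lost H3K27ac region, against 25.4%, and the same -1.24. The stricter overlap gave 1 gene with a gained H3K27ac region, 2 with a gained and 2 with a lost H3K36me3 region. Shares of all genes are not given for the stricter overlap or for 20 kb on both sides.

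Without single libraries, the median difference ranged from -11.1 to -4.76 for H3K27ac and from -1.12 (without cKO replicate 2) to 8.87 for H3K36me3. Genes with higher H3K27ac ranged from 1 to 3 (without WT replicate 1), and with lower from 7 to 8. Genes with higher H3K36me3 ranged from 4 to 6 and with lower from 2 to 4 (without cKO replicate 2). By the rule, a gene higher or lower with all libraries stays so without 1 of them. Counts of higher and lower genes thus could not fall for either mark. Gained regions ranged from 0 to 3 genes for H3K27ac and 1 to 3 for H3K36me3, and lost ones from 2 to 4 and 0 to 2. Shares of all genes are not given for the counts without single libraries. Groups of 1 and 2 libraries separate more readily than 2 and 2, so these counts cannot be set against the shares above. H3.3-HA in the window ranged from 9 to 10 genes. With all libraries, it lay at 7 genes with the body alone, at 6 with regions of at least 1 kb and at 10 with 20 kb on both sides. Shares of all genes are not given for these H3.3-HA counts. At genes whose groups overlapped in the report, Tlr13 and Myd88 H3K27ac stood at 7.13 and 6.50 without WT replicate 1, Tlr9 H3K36me3 at 15.1 without WT replicate 2 and Myd88 H3K36me3 at -6.97 without cKO replicate 2. Signs that changed were Tlr13 H3K27ac (-0.967) and Myd88 H3K27ac (-4.20) without WT replicate 2, Myd88 H3K27ac (-2.56) and Tlr9 H3K36me3 (-2.54) without cKO replicate 2, Tlr9 (-3.96) and Myd88 (2.14) H3K36me3 without WT replicate 1, and Myd88 H3K36me3 (3.27) without cKO replicate 1.

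With the replicate number as a block, the differences are the same by construction and no p below 0.5 is possible, and the calls do not use the block. At Tlr1, Tlr3 and Tlr9 H3K36me3, where the groups overlapped, both pairs had the same sign (p = 0.5, exact sign-flip permutation, against 0.667 without the block). Libraries with the same number deviated from their group means with a correlation of -0.101 (H3K27ac) and 0.104 (H3K36me3) over genes. With 2 libraries a group, these values cannot show whether such libraries shared more than a number. A crossed pairing of the H3K27ac libraries, added after seeing the data, gave 0 of 10 genes below 0.05, which the smallest possible p of 0.5 does not allow. The number of libraries and the absence of a signal per region limit these values to a description of whether the groups separate.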
